A study of Medicago truncatula with 21 samples.

Results

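In mature seeds of the legume Medicago truncatula, 84 nuclear transcripts stood far lower in both abi4 mutants than in the wild type. They are 84 of the 44473 identifiers in the deposited table, chosen by their values in the 9 mature libraries. A member had a mean of at least 20 normalized counts in mature R108, a mean + 1 there at least 3 times that of each mutant, and every mutant library below every R108 library. Of 153 identifiers within these bounds, 50 were plastid-encoded, 0 were mitochondrial and 19 lay in a stretch of consecutive identifiers on chromosome 4, and these were set aside.

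R108 is the wild-type line. The lines abi4-1 (NF19813) and abi4-2 (NF2525) carry insertions of the retrotransposon Tnt1 in the R108 background, and each allele is represented by 1 line. Whole seeds of R108 and abi4-1 were taken at 13 and 24 days after pollination (DAP) and at maturity, and those of abi4-2 at maturity, with 3 libraries in each of the 7 groups. The series' design text says that replicates came from different plants, but it names mutants of another gene. If they did not, the p-values reflect no more than the spread between the sequenced libraries, which may be technical. In whole seeds, fewer cells of a type and less RNA per cell cannot be told apart.

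Work mainly in Arabidopsis describes ABI4 as an AP2/ERF transcription factor with roles in seed responses to abscisic acid and to sugars. During late maturation a seed stops filling, loses its chlorophyll, dries and stores messenger RNAs that are used at germination. A transcript that is low in a mature mutant seed may already have been low while the seed developed, or may differ at the end alone, and the libraries at 13 and 24 DAP address this. They took no part in choosing the members.

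None of the 44473 identifiers (0 matches) could be paired with a gene name or a product, so no role is given to any member, the ABI4 transcript was not located, and no marker of seed tissue was examined. A member that was low in abi4-1 at every stage could be the disrupted gene itself. Library totals lay between 18365151 and 24032451 normalized counts, and they were between 19162030 and 20345780 in mature seeds. The values were taken as scaled separately for each stage. Stage means are therefore compared on a scale made common to all 21 libraries, unless another is named. This scale takes the median transcript as unchanged between stages, which was not tested. Values of single libraries, and bounds on them, are as deposited, so the same number may stand for a different level at each stage. The values are not divided by transcript length, and an order of transcripts by normalized count is not an order of abundance.

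In mature R108, the members' means ran from 22.1 to 1535 normalized counts, with a median of 83.2. The mean left in abi4-1 was between 0 and 32.5% of the R108 mean, with a median of 20.9%, and in abi4-2 between 0 and 32.9%, with a median of 19.1%. The ratio of means + 1 was at least 5 in both mutants for 23 members and at least 10 for 7. These values chose the members and are a description. Limma, a linear model on log2 values fitted to all genes, called 81 members lower in abi4-1, where 22.2% of all genes were lower, and 83 in abi4-2, where 20.5% were. Nothing is read from these counts, and both mutants were set against the same 3 R108 libraries. Called here and below means a Benjamini-Hochberg adjusted p under 0.05 over all genes tested.

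**Figure D1:**
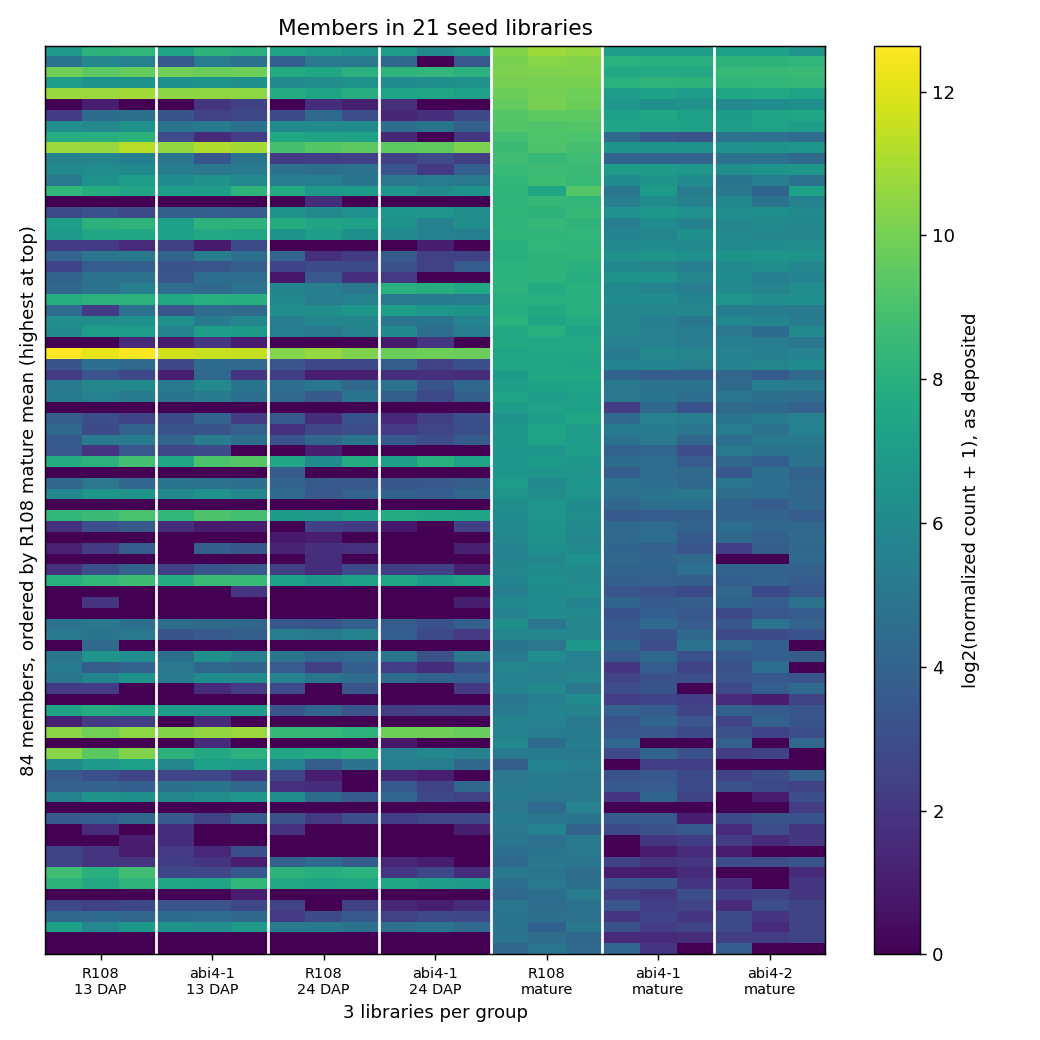
Levels of the 84 members in the 21 libraries, as log2(normalized count + 1) of the deposited values, 1 row per member, ordered by the mean in mature R108 (color scale at right). The 3 mature R108 columns are brighter than the 6 mature mutant columns in each row, as the choice of members requires, while the columns at 13 and 24 DAP range from bright to dark.

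The highest normalized count in mature R108 belonged to MtrunA17_Chr7g0221841, at 1238, 1761 and 1605, against 137, 134 and 133 in abi4-1 and 138, 138 and 96.3 in abi4-2. Its mean was 8.77% of that of R108 in abi4-1 and 8.08% in abi4-2, whereas at 24 DAP it stood at 166, 126 and 99.9 in R108 and 134, 62.2 and 101 in abi4-1, groups that overlapped. MtrunA17_Chr6g0470731 was near 0 in developing seeds, with at most 4.68 normalized counts in the 12 libraries. At maturity R108 held 775, 1043 and 892, abi4-1 held 102, 78.2 and 85.3, and abi4-2 held 60.5, 70.2 and 76.6. MtrunA17_Chr3g0108431 stood at 1107, 1324 and 1231 in mature R108, at 266, 259 and 238 in abi4-1 and at 291, 286 and 319 in abi4-2. MtrunA17_Chr7g0224571 was even between replicates, at 1069.7, 1088 and 1085 in R108, 272, 295 and 289 in abi4-1 and 312, 326 and 345 in abi4-2. MtrunA17_Chr7g0262061 stood at 893, 1004 and 914 in R108, 122, 149 and 120.1 in abi4-1 and 173, 207 and 152 in abi4-2. At 13 DAP its values stood at 1643, 1676 and 1857 in R108 and 1408, 1485 and 1459.7 in abi4-1.

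The widest ratios were found for 4 members. MtrunA17_Chr5g0437371 held 465, 574 and 535 normalized counts in mature R108, 18.8, 9.84 and 8.25 in abi4-1 and 26.7, 25.4 and 20.9 in abi4-2. MtrunA17_Chr4g0010341 held 438, 356 and 412 in R108, 15.9, 15.6 and 15.1 in abi4-1 and 25.4, 25.7 and 20.0 in abi4-2. Both kept under 6% of the R108 mean in either mutant. MtrunA17_Chr7g0229861 was listed at 0 in the 12 developing libraries, in the 3 abi4-1 and in 2 of the 3 abi4-2 mature libraries, with 3.94 in the other, and at 31.0, 20.2 and 47.5 in mature R108. MtrunA17_Chr3g0101341 stood at 23.6, 28.1 and 32.2 in R108, and no mutant library exceeded 2.04.

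The separation was narrow for some members: in 12 of the 84 the lowest R108 library was under 2 times the highest mutant library. Just inside the bound on the ratio were MtrunA17_Chr8g0352801, at means of 175 in R108, 48.5 in abi4-1 and 57.6 in abi4-2, and MtrunA17_Chr2g0322371, at 86.9, 28.3 and 20.5. Just outside were MtrunA17_Chr7g0232851, at 444, 148 and 133, and MtrunA17_Chr7g0267961, at 571, 159 and 191. The bound does not mark a gap in these values.

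The members' sum in mature mutants was bounded by their choice and is given as a description beside the sum of the plastid-encoded transcripts, which are not members. The members made up 0.0901 ± 0.00663% of the mature R108 libraries, 0.0172 ± 0.00174% of abi4-1 and 0.0183 ± 0.000805% of abi4-2 (SD, n = 3). Plastid transcripts made up 0.496 ± 0.0633% of R108, 0.110 ± 0.00894% of abi4-1 and 0.114 ± 0.00152% of abi4-2. In abi4-1 the mean member sum was 18.6% of that in R108 and the plastid sum 21.7%. For abi4-2 these were 19.7% and 22.3%. At 13 DAP the percentages in abi4-1 were 75.2 for the members and 100 for the plastid transcripts, and at 24 DAP they were 92.7 and 90.8. Of the difference of -4313 normalized counts in the members' sum at 13 DAP, MtrunA17_Chr1g0213421 gave -2516 and MtrunA17_Chr8g0385291 -828. The part of the plastid transcripts in the members' values was not tested.

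In developing seeds 51 of the 84 members were tested at 13 or 24 DAP, and 13 of these were called different between abi4-1 and R108 at either stage. Of the 39 tested at both stages, 6 were lower at both. Shares over all genes are given below for each stage alone, not for the stages combined. At 13 DAP 50 of the 84 reached 10 normalized counts in at least 3 of the 6 libraries and were tested, and 6 were lower in abi4-1, where 1.2% of 22499 genes were called lower. None (0) was called higher, where 1.26% of all genes were, and 2 were higher at an unadjusted p under 0.05. At 24 DAP 40 members were tested, 10 were lower, where 6.4% of 19508 genes were, and 3 were higher, where 9.64% were. Both stages tested 39 members, and 27 of these were called at neither. Another 33 members were too low to be tested at either stage. The fits behind these counts had no term for the replicate number. With it as a block, 5 members were lower at 13 DAP, where 1.66% of all genes were, and 13 were lower and 4 higher at 24 DAP, where 9.19 and 11.8% were. The median log2 difference of the members tested was -0.22 at 13 DAP and -0.41 at 24 DAP, against -0.0088 and -0.011 for all genes tested. Of the members tested, 1 at 13 DAP and 3 at 24 DAP passed the bound on low values through R108 alone, and 1 at 13 DAP through abi4-1 alone. Alone means that no library of the other genotype reached 10. Other members called lower passed mainly through R108. In abi4-1, MtrunA17_Chr6g0454201 held 5.37, 5.45 and 10.3 at 13 DAP. At 24 DAP MtrunA17_Chr2g0319761 held 12.6, 5.95 and 3.24 there, and MtrunA17_Chr1g0151961 held 9.16, 3.49 and 12.9. The count of lower calls at 13 DAP fell to 2 without R108 replicate 3 and to 3 without R108 replicate 1 or abi4-1 replicate 3. At 24 DAP the lower calls fell to 6 without R108 replicate 1, and the higher calls rose to 5 without R108 replicate 3. Shares of all genes in these omissions are not given here, and members that passed through R108 alone lose their test when an R108 library is left out.

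**Figure D2:**
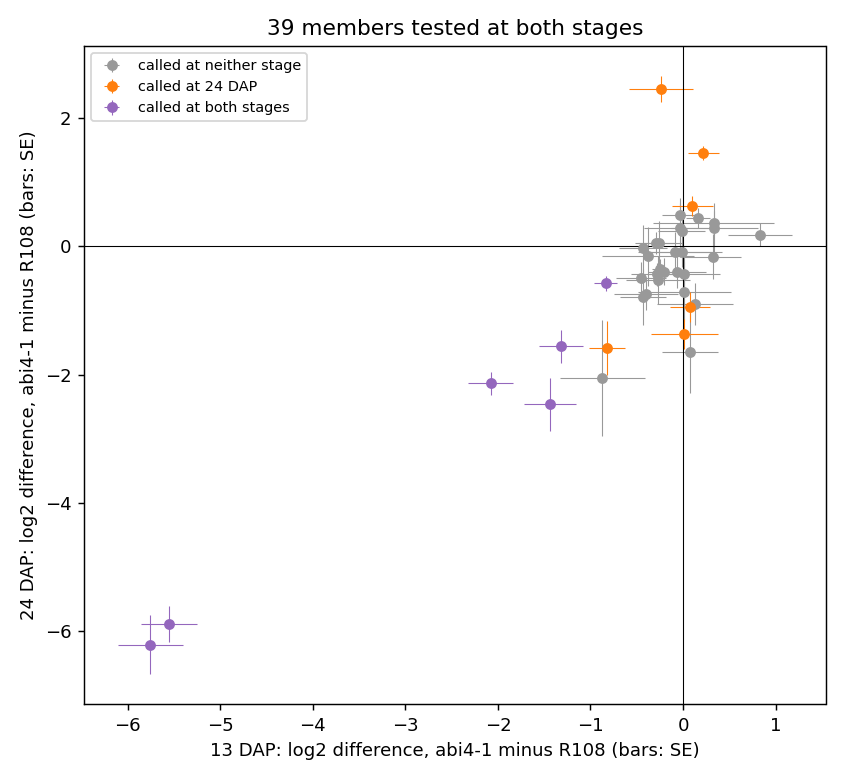
Log2 difference of abi4-1 minus R108 at 13 DAP (horizontal) and at 24 DAP (vertical) for the 39 members tested at both stages, with SE bars from limma. The 6 members called at both stages lie at the lower left, 2 of them beyond -5 on both axes, and the 27 called at neither run from -0.87 to 0.83 at 13 DAP and from -2.05 to 0.50 at 24 DAP.

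The same 6 members were called lower at both developing stages. MtrunA17_Chr5g0437371 stood at 223, 249 and 279 normalized counts in R108 and 6.33, 1.82 and 3.83 in abi4-1 at 13 DAP, a log2 difference of -5.75 ± 0.35 (SE, limma adjusted p = 0.000113). At 24 DAP it stood at 186, 154 and 151 in R108 and 1.56, 0 and 3.18 in abi4-1, a log2 difference of -6.22 ± 0.46 (limma adjusted p = 1.4e-05). The R108 libraries lay far above those of abi4-1 at each stage, and this was the member with the widest ratio at maturity as well.

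MtrunA17_Chr6g0454201 stood at 426, 261 and 429 in R108 and 5.37, 5.45 and 10.3 in abi4-1 at 13 DAP (log2 difference -5.55 ± 0.30 SE, limma adjusted p = 6.8e-05). At 24 DAP the values were 283, 240 and 264 against 3.04, 5.79 and 2.15 (-5.89 ± 0.29, limma adjusted p = 7.8e-07). In mature R108 it stood at 30.7, 29.1 and 22.1, with at most 2.05 in a mature mutant library. On the common scale its R108 means were 237 at 13 DAP, 472 at 24 DAP and 24.5 at maturity. As deposited these means were 372, 262 and 27.3, so the order of 13 and 24 DAP depended on the scale. Both transcripts passed the bound on low values through R108 alone at 24 DAP, and Chr5g0437371 did so at 13 DAP too. A member that passes in this way has to differ, so these 3 calls, which are among the lower calls counted above, are weak as tests.

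MtrunA17_Chr8g0385291 was lower in abi4-1 at both stages by about the same log2 difference, -2.08 ± 0.24 at 13 DAP (SE, limma adjusted p = 0.00326) and -2.14 ± 0.18 at 24 DAP (limma adjusted p = 3.5e-05). Its values at 13 DAP were 1338, 692 and 1198 in R108 and 278, 199 and 266 in abi4-1, and at 24 DAP 180.0, 211 and 267 against 43.7, 57.8 and 44.9. In mature R108 it stood at 35.3, 37.1 and 33.6, with 5.95, 15.6 and 8.10 in abi4-1 and 3.97, 4.88 and 0 in abi4-2. Groups did not overlap at any stage, and on the common scale the R108 means were 685, 395 and 31.6 in order of age.

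MtrunA17_Chr3g0114101 had common-scale R108 means of 47.1 at 13 DAP, 113 at 24 DAP and 516 at maturity. Its deposited values were 75.6, 60.6 and 85.8 in R108 at 13 DAP, 62.3, 63.6 and 62.5 at 24 DAP and 584, 562 and 584 at maturity. In abi4-1 it stood at 28.0, 36.2 and 23.6 at 13 DAP (log2 difference -1.31 ± 0.24 SE, limma adjusted p = 0.0284) and at 22.1, 28.4 and 13.9 at 24 DAP (-1.56 ± 0.26, limma adjusted p = 0.00248). The call at 13 DAP was lost without R108 replicate 1 or 3 or abi4-1 replicate 1 or 3 (limma adjusted p of 0.0937, 0.165, 0.101 and 0.135), and p ran from 0.0198 to 0.165 over the alternatives.

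MtrunA17_Chr2g0319761 stood at 32.1, 28.2 and 32.7 in R108 and 8.83, 10.6 and 13.3 in abi4-1 at 13 DAP (-1.44 ± 0.28 SE, limma adjusted p = 0.0379). At 24 DAP it stood at 39.6, 33.7 and 46.4 against 12.6, 5.95 and 3.24 (-2.46 ± 0.41, limma adjusted p = 0.0027). Every R108 library was above every abi4-1 library at each stage. The call at 13 DAP was lost with the replicate number as a block (limma adjusted p = 0.0506) and without any one library except R108 replicate 2 (0.1 to 0.191). Over all alternatives p ran from 0.0379 to 0.191.

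MtrunA17_Chr1g0213421, the member that gave most of the difference in the sum at 13 DAP, stood at 6363, 4676 and 5969 in R108 and 3469, 3037 and 2955 in abi4-1 at 13 DAP. The log2 difference was -0.84 ± 0.13 (SE, limma adjusted p = 0.0139), lost without R108 replicate 3 or abi4-1 replicate 2 or 3 (0.0927, 0.0622 and 0.0961, in a range of 0.0019 to 0.0961). At 24 DAP it stood at 1242, 1595 and 1158 against 871, 916 and 867 (-0.58 ± 0.12, limma adjusted p = 0.00774), and at maturity at 177, 190.0 and 181 in R108 against 35.1, 61.3 and 52.1 in abi4-1 and 47.7, 42.3 and 47.4 in abi4-2.

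Another 4 members were called lower at 24 DAP and were not called at 13 DAP. They are named after their values were seen, and the difference between the stages was called for 1 of them. MtrunA17_Chr1g0208331 stood at 224, 167 and 151 in R108 and 90.2, 46.9 and 74.4 in abi4-1 (-1.37 ± 0.23 SE, limma adjusted p = 0.0029). MtrunA17_Chr1g0151961 stood at 25.8, 22.6 and 26.5 against 9.16, 3.49 and 12.9 (-1.59 ± 0.42, limma adjusted p = 0.0270), a call lost without R108 replicate 1 or 3 or abi4-1 replicate 1 or 2 (0.0846, 0.0643, 0.0556 and 0.0630, in a range of 0.0163 to 0.0846). Its groups were also apart at 13 DAP, at 61.1, 66.4 and 63.2 in R108 and 38.7, 31.8 and 36.4 in abi4-1 (-0.82 ± 0.19, limma adjusted p = 0.0726). In MtrunA17_Chr4g0000661 the values were 85.2, 137 and 81.3 against 64.3, 46.2 and 43.0 (-0.95 ± 0.23, limma adjusted p = 0.0186), lost without R108 replicate 2 or abi4-1 replicate 2 or 3 (0.0528, 0.0653 and 0.0745, in a range of 0.0134 to 0.0745). Groups did not overlap for these 3 transcripts. The fourth, MtrunA17_Chr2g0323091, stood at 13.6, 20.4 and 12.3 against 1.63, 1.02 and 0 (-3.21 ± 0.59, limma adjusted p = 0.0044). It was tested because of R108 alone, so this call is weak as a test too, and it was not tested at 13 DAP.

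The 3 members called higher in abi4-1 at 24 DAP had the opposite order of genotypes at maturity. The choice of members fixed that order at maturity, so the reversal is a description. MtrunA17_Chr3g0116601 stood at 50.3, 41.4 and 30.6 in R108 and 262, 231 and 186 in abi4-1 at 24 DAP, a log2 difference of 2.46 ± 0.20 (SE, limma adjusted p = 2.8e-05). At maturity R108 stood at 284, 221 and 259, while abi4-1 stood at 58.0, 49.9 and 41.8 and abi4-2 at 63.0, 48.9 and 73.3.

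MtrunA17_Chr1g0207981 was higher in abi4-1 at 24 DAP, at 904, 937 and 828 against 353, 342 and 278 in R108 (1.46 ± 0.11 SE, limma adjusted p = 1.8e-05), and lower at maturity, at 9.88, 9.84 and 6.14 against 49.2, 40.2 and 37.4. MtrunA17_Chr0c04g0492061, on an unplaced scaffold, stood at 215, 192 and 164 in abi4-1 and 117, 106 and 147 in R108 at 24 DAP (0.63 ± 0.16, limma adjusted p = 0.0209). The last call was lost without R108 replicate 1 or 2 or abi4-1 replicate 1 or 2 (0.0678, 0.0583, 0.0863 and 0.0665, in a range of 0.00844 to 0.0863).

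**Figure D3:**
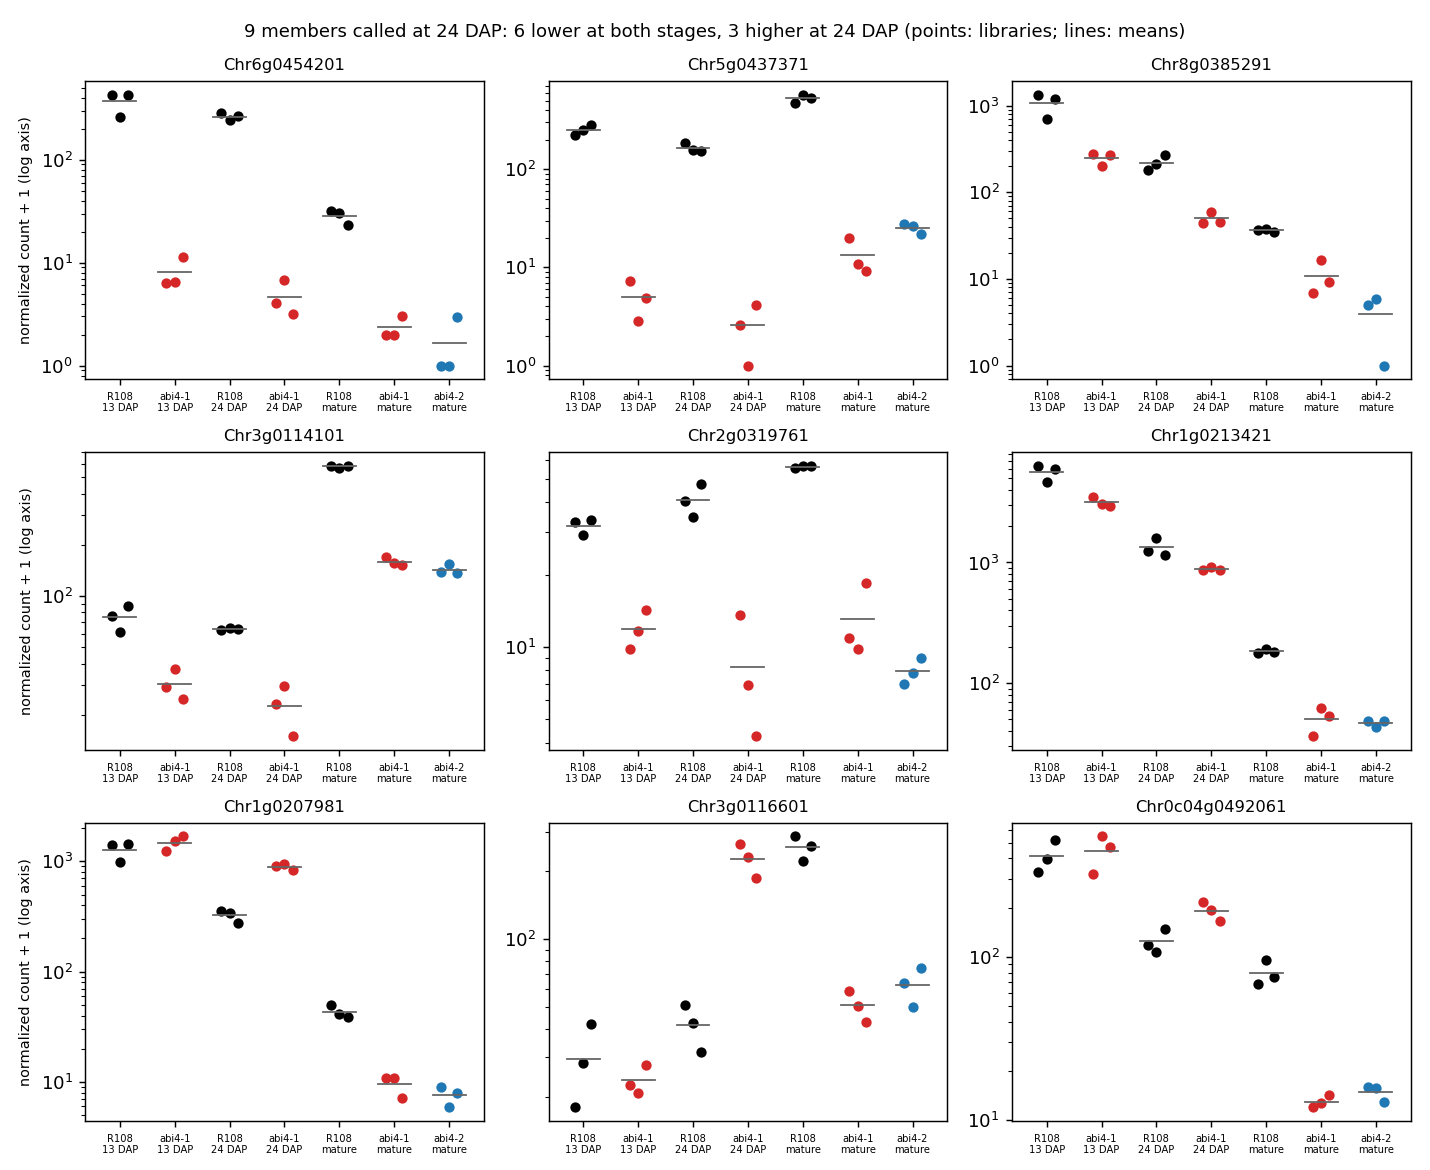
Values of 9 members in the 7 groups as normalized count + 1 on a log axis, with 1 point per library and a line at the group mean (black R108, red abi4-1, blue abi4-2). The 6 members of the upper 2 rows were lower in abi4-1 at 13 and 24 DAP, and the 3 of the bottom row were higher in abi4-1 at 24 DAP. All 9 lie below R108 at maturity, as the choice of members requires.

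Whether the difference between abi4-1 and R108 changed from 13 to 24 DAP was tested as an interaction over 12 libraries, none of them mature. Of 53 members tested, 2 were called as more positive at 24 DAP, where 3.87% of all genes were, and 1 as more negative, where 2.37% were. The 2 were MtrunA17_Chr3g0116601, with a change of 2.69 ± 0.42 on the log2 scale (SE, limma adjusted p = 0.00202), and MtrunA17_Chr1g0207981, with 1.24 ± 0.22 (limma adjusted p = 0.00473). At 13 DAP the first stood at 17.0, 27.4 and 41.0 in R108 and 21.6, 20.0 and 26.8 in abi4-1, and the second at 1409, 976 and 1446 against 1234, 1521 and 1679, both with overlapping groups. The 1 was MtrunA17_Chr2g0323091, at -2.82 ± 0.69 (limma adjusted p = 0.0287), with at most 4.78 in a library at 13 DAP. With the replicate number as a block, 3 members were more negative, where 3.81% of all genes were, and 2 more positive, where 5.18% were. The call of Chr2g0323091 was lost with a pseudocount of 0.1 (limma adjusted p = 0.110) and without R108 13 DAP replicate 3, abi4-1 13 DAP replicate 1 or 2, or abi4-1 24 DAP replicate 2 or 3 (0.0501 to 0.0751, in a range of 0.0201 to 0.110 over the alternatives). Without R108 24 DAP replicate 1, 2 or 3 this member did not pass the bound on low values, so its interaction call is weak as a test.

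**Figure D4:**
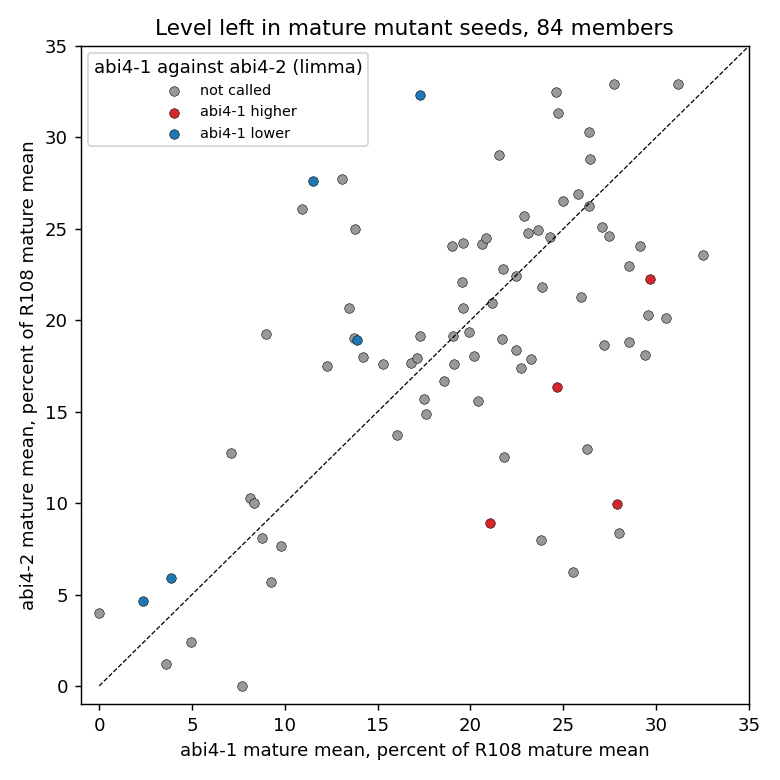
Mean level left in mature abi4-1 (horizontal) and abi4-2 (vertical) seeds as a percentage of the mature R108 mean, 1 point per member, with the line of equal percentages dashed. Points called by limma as higher (red) or lower (blue) in abi4-1 than in abi4-2 are 9 of 84, and the points lie on both sides of the line.

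The mutants were set against each other in mature seeds, in libraries that the choice of members had bounded from above without using their difference. The mean was lower in abi4-1 than in abi4-2 for 42 of the 84 members. Limma called 4 members higher in abi4-1, where 9.68% of 19429 genes were, and 5 lower, where 8.93% were. The bound on both mutants limits how far the alleles could differ among members. Nothing is therefore read from these counts against the shares of all genes. An adjusted p above 0.05 does not show that the other members were alike in both alleles. MtrunA17_Chr7g0242601 held 198, 210 and 199 in abi4-1 and 355, 383 and 396 in abi4-2, a log2 difference of -0.90 ± 0.07 (SE, limma adjusted p = 1.7e-06), below 1135, 1176 and 1197 in R108. It had not been called at 13 DAP (adjusted p = 0.699 by limma) or at 24 DAP (0.0844).

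MtrunA17_Chr2g0324611 went the other way, at 69.2, 93.1 and 68.2 in abi4-1 and 29.0, 41.1 and 27.3 in abi4-2 (1.23 ± 0.18 SE, limma adjusted p = 0.000292), below 313, 417 and 365 in R108. MtrunA17_Chr2g0310011 stood at 56.8, 55.4 and 57.8 in abi4-1 and 39.7, 38.2 and 34.9 in abi4-2 (0.58 ± 0.14, limma adjusted p = 0.00887). In MtrunA17_Chr4g0033261 abi4-1 was the lower allele, at 14.0, 16.6 and 7.12 against 33.9, 27.4 and 29.0 (-1.27 ± 0.27, limma adjusted p = 0.00511). Groups did not overlap for these transcripts. MtrunA17_Chr5g0437371, the member with the widest ratio, was also lower in abi4-1 than in abi4-2 (limma adjusted p = 0.00949).

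Another 4 members, of which Chr4g0000801 and Chr1g0151961 are named after their values were seen, lost their call between the alleles on leaving out 1 library or another. MtrunA17_Chr4g0000801 stood at 16.8, 16.7 and 19.6 in abi4-1 and was listed at 0 in 2 of the 3 abi4-2 libraries, with 18.9 in the other, so these groups overlapped. Its limma adjusted p of 0.0267 rose to between 0.0617 and 0.107 without any 1 of 5 mutant libraries, the exception being abi4-2 replicate 3. MtrunA17_Chr1g0151961 was higher in abi4-1, at 121, 123 and 102 against 72.8, 85.9 and 101 (limma adjusted p = 0.0322, lost in 5 of the omissions, at most 0.13). MtrunA17_Chr7g0262061 and MtrunA17_Chr4g0010341 were lower in abi4-1, with limma adjusted p of 0.0167 and 0.0301, lost in 3 and in 6 of the omissions (at most 0.0763 and 0.0868). Over the members, lower calls dropped to 3 on leaving out abi4-1 replicate 1 or 3 or abi4-2 replicate 2. Higher calls dropped to 2 on leaving out abi4-1 replicate 2 and rose to 7 on leaving out abi4-2 replicate 3. Shares of all genes in these omissions of mature libraries are not given here, so the counts are a description.

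Over the stages of R108 the members were of several kinds. On a scale common to all 21 libraries, 66 of the 84 were highest in mature seeds, 9 at 13 DAP and 9 at 24 DAP. The share highest at maturity was 78.6% of members and 53.5% of the 16061 nuclear transcripts, members included, with a mature R108 mean of at least 20. Stage and scaling set coincide, so no test was made. The choice of members also required high values in mature R108, so these shares are a description. With values as deposited the members split into 67, 17 and 0, and with column totals into 68, 16 and 0.

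A group of 16 members stayed under 3 normalized counts in each of the 12 developing libraries, and 7 of these were listed at 0 in all 12. The same was true of 1.81% of the nuclear transcripts at or above the mean of 20, against 19.0% of the members. Mature values chose the members, so these shares are a description too. In mature R108 these 16 ran from 22.1 to 318, and the median level left was 16.8% in abi4-1 and 15.3% in abi4-2. MtrunA17_Chr4g0024471, at 296, 340 and 318 in mature R108, stood at 41.4, 67.0 and 44.4 in abi4-1 and 58.8, 26.4 and 45.8 in abi4-2. MtrunA17_Chr3g0142611, listed at 0 in the 12 developing libraries, reached 124, 152 and 142 in mature R108, 3.99, 17.6 and 8.15 in abi4-1 and 19.8, 18.6 and 14.9 in abi4-2. Both were named after their values were seen.

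Some members were neighbours in the order of identifiers, which follows position along a chromosome. Of the 84, 29 fell into 10 runs of 2 to 7 members. Within a run, no other identifier that passed the bound on low values in mature seeds lay between the members. Another member lay within 10 such identifiers for 36 of the 84. Like counts for other nuclear transcripts are not given here, so whether members are neighbours more often was not tested. Chromosomes 4 and 7 held 16 members each, or 19% of the members, against 16.6 and 12.4% of the nuclear transcripts at or above the mean of 20. Chromosome 6 held 11 members, 13.1% against 6.05%, and 7 of the 11 formed a single run. Chromosome 8 held 3 members, 3.57% against 12.6%, and the unplaced scaffolds also held 3, all in a single run, against 0.23%. On chromosome 4, 6 members lay within 10 identifiers of the stretch that had been set aside.

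The longest run, on chromosome 6 from MtrunA17_Chr6g0458671 to MtrunA17_Chr6g0458851, held 7 members. Their mature R108 means ran from 25.8 to 219, and between 13.4 and 24.7% was left in abi4-1 and between 17.6 and 31.3% in abi4-2. Within it, MtrunA17_Chr6g0458831 stood at 267, 170 and 221 in mature R108, 55.0, 43.1 and 30.5 in abi4-1 and 55.8, 51.6 and 38.0 in abi4-2. At 13 DAP Chr6g0458831 stood at 71.7, 78.7 and 79.9 in R108 and 81.0, 37.2 and 57.0 in abi4-1, where the groups overlapped. The others of the run were MtrunA17_Chr6g0458761, Chr6g0458771, Chr6g0458821 and Chr6g0458841.

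The second run, of 4 members on chromosome 4 from MtrunA17_Chr4g0016841 to MtrunA17_Chr4g0017011, begins just beyond the set-aside stretch. MtrunA17_Chr4g0016901, within it, stood at 12.3, 50.2 and 41.5 in mature R108, 0, 3.91 and 4.07 in abi4-1 and 0 in each abi4-2 library, but at 64.9, 108.3 and 137 in R108 and 53.3, 138 and 123 in abi4-1 at 13 DAP. The third run, MtrunA17_Chr0c04g0492061, Chr0c04g0492081 and Chr0c04g0492091 on an unplaced scaffold, had R108 means on the common scale of 206 to 1244 at 13 DAP. At 24 DAP these means ran from 222 to 1102, and in mature seeds from 70.2 to 428. Between 15.3 and 19.0% of the mature R108 mean was left in abi4-1 and between 17.6 and 19.1% in abi4-2. MtrunA17_Chr0c04g0492091 stood in mature R108 at 394, 559 and 481, with 92.7, 92.8 and 87.6 in abi4-1 and 84.1, 90.2 and 100.2 in abi4-2. At 24 DAP its R108 libraries, at 477, 635 and 724, lay below those of abi4-1, at 730, 754 and 1118, a difference that was not called. Neighbours with similar sequence can share reads, and how reads were divided between similar copies is not given in the sources used here.

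Neighbouring members did not always share a profile over the stages. On chromosome 2, MtrunA17_Chr2g0304211 was listed at 0 in the 12 developing libraries and stood at 48.3, 66.3 and 61.8 in mature R108, 7.97, 12.7 and 10.2 in abi4-1 and 5.94, 9.80 and 11.9 in abi4-2. Its neighbour MtrunA17_Chr2g0304201 was present at 13 DAP, at 33.2, 54.7 and 64.4 in R108 and 36.1, 61.6 and 29.6 in abi4-1, where the groups overlapped. In mature seeds this neighbour stood at 135, 161 and 158 in R108, 32.9, 27.4 and 28.5 in abi4-1 and 19.8, 39.2 and 34.7 in abi4-2. A pair on chromosome 5 differed in the same way. MtrunA17_Chr5g0435921 held at most 3.06 in a developing library and 205, 194 and 199 in mature R108, against 43.6, 45.8 and 40.3 in abi4-1 and 42.8, 40.3 and 30.5 in abi4-2. MtrunA17_Chr5g0435961 held 28.2, 50.4 and 87.2 in R108 at 13 DAP, with a common-scale mean of 35.2 there and 43.3 at maturity. Its mature values were 46.3, 44.2 and 54.7 in R108, with 4.98, 7.82 and 7.13 in abi4-1 and 8.91, 9.80 and 8.93 in abi4-2. On chromosome 3 the pair had like profiles, with common-scale R108 means for Chr3g0108431 of 27.9, 45.9 and 1093 in order of age. MtrunA17_Chr3g0108461, the neighbour of Chr3g0108431, held at most 6.62 in a developing library and 254, 322 and 300.2 in mature R108, against 60.2, 67.3 and 62.9 in abi4-1 and 60.8, 68.0 and 71.2 in abi4-2. These pairs were picked after their values were seen.

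Some members followed the plastid-encoded transcripts from library to library in developing seeds. For each transcript with a mean of at least 10 over the 12 developing libraries, the deviations of its log2 level from the group means were correlated with those of the summed plastid transcripts. Among 47 members the median Pearson r was 0.379, and 7 members, or 14.9%, reached 0.8. Among 21702 nuclear transcripts the median was -0.00921 and 1.81% reached 0.8, while 63.4% of 71 plastid transcripts did. The 12 points share libraries, depth and the authors' scaling, so this is a description.

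The highest r belonged to MtrunA17_Chr1g0208331, at 0.956 (Spearman's rho 0.965, 12 libraries). At 13 DAP it stood at 135, 277 and 300 in R108 and 140, 289 and 286 in abi4-1, while the plastid sum stood at 27937, 42263 and 54740 in R108 and 22507, 54282 and 48287 in abi4-1. Replicate 1 was the lowest of both groups in both measures. MtrunA17_Chr8g0352801 had an r of 0.954, MtrunA17_Chr4g0000711 of 0.950 and MtrunA17_Chr1g0163411 of 0.947. By contrast, MtrunA17_Chr5g0437371, which was low in abi4-1 at every stage, had an r of 0.014. Without the pair of libraries whose plastid sums lay farthest from the median, abi4-1 and R108 replicate 1 at 13 DAP, 5 members (10.6%) and 2.86% of the nuclear transcripts reached 0.8. These members were singled out after their values were seen.

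**Figure D5:**
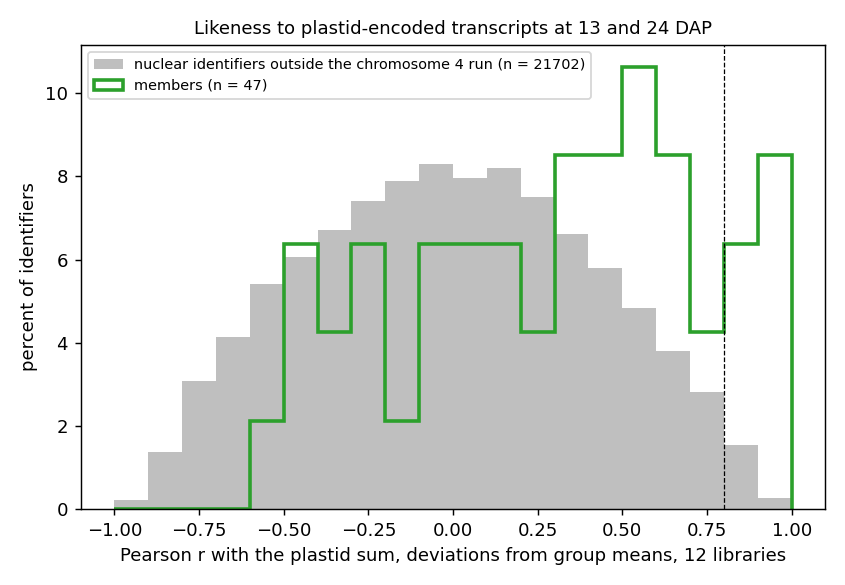
Pearson r between a transcript's deviations and those of the plastid sum over the 12 libraries at 13 and 24 DAP, as the percentage of identifiers in each interval, for 47 members (green line) and 21702 nuclear identifiers (grey bars). The members lie further to the right, with 7 at or beyond the dashed line at 0.8.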

How the data were processed

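The transcriptome of 21 seed libraries was measured by RNA sequencing. The submitters' processing notes name Salmon and no version of it. Not given in the sources used here are build, annotation and normalization tool. The deposited table is titled FPKM, yet its values behave as a signal of normalized read counts. Relative to the mean over libraries, the median ratio of the single libraries lay between 1.55 and 1.58 for the 13 DAP libraries. It lay between 0.552 and 0.56 for those of 24 DAP and between 1.11 and 1.13 for mature seeds. Taken within a stage, the ratio was 1 at 13 DAP and 1.01 at 24 DAP and at maturity. The stages were therefore treated as scaled separately. Whether a change in the makeup of the libraries between stages shared in these ratios was not tested. Of the low values, 95.7 to 99.2% were within 0.1 of a whole multiple of 1 read in the mature libraries, but 45.6 to 87.7% in the developing ones. Whole reads could thus not be recovered for the table, and no count model was used.

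Limma 3.58.1 (R 4.3.3, variance trend on the mean) was applied to log2(value + 1) within each stage, over 6 libraries at 13 or 24 DAP, 12 for the interaction and 9 at maturity, on all genes with at least 10 in at least 3 libraries. Adding 1 makes fold changes of low transcripts smaller. Library totals of 18365151 to 24032451 limit the precision. Named members were those with the highest mature R108 mean, the widest ratio, calls at both developing stages, the lowest adjusted p in a comparison, the longest runs and the values nearest the bound on the ratio. Others are marked as chosen later. Alternatives were other pseudocounts, filters, scalings, fits and omitted libraries. The members and lists were chosen with earlier results of these data known. The 44473 identifiers were looked up among 39590 genes of a reference table with 0 matches, so lists by product, sequences and tissue markers were not run.

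All groups use the replicate numbers 1 to 3, with no statement of what equal numbers share. Deviations of same-numbered R108 and abi4-1 libraries correlated at 0.154 to 0.293 at 13 DAP and 0.102 to 0.339 at 24 DAP. The main fits did not use the numbers. Differences, SE and adjusted p of named members come from those unpaired fits unless a block is mentioned. The replicate number was fitted as a block in an alternative alone, which changed the counts of calls. Deviations of the mature mutants correlated at 0.0329 to 0.177 and were not taken as pairs.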

Additional observations from a re-analysis of the deposited data

Results flagged for a closer look

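A change from 13 to 24 DAP in the difference between abi4-1 and R108 was called in 3 of 53 members tested, over 12 libraries. Of the members tested, 3.77% were called more positive and 1.89% more negative, against 3.87 and 2.37% of all genes. These shares are close, so nothing is read from them about the members as a set. The difference became more positive by 2.69 on the log2 scale for MtrunA17_Chr3g0116601 (limma adjusted p = 0.00202) and by 1.24 for MtrunA17_Chr1g0207981 (limma adjusted p = 0.00473). For MtrunA17_Chr2g0323091 the change was -2.82 (limma adjusted p = 0.0287), on at most 4.78 normalized counts in a library at 13 DAP. This member passed the bound on low values through R108 at 24 DAP alone, so its call is weak as a test. The call was also lost with a pseudocount of 0.1 (limma adjusted p = 0.110) and in some omissions of a library.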

How the results depend on the processing

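No call of a single member reversed its direction (0 of 31 calls), and 20 were kept in every omission of a library that left the member tested. The choice of members gave 221 with a ratio of 2 and 45 with a ratio of 4, of which all 45 are among the 84, and 82 to 94 without 1 mature library. Lower calls at 13 DAP ranged from 2 to 5 without 1 library. Higher calls at 13 DAP numbered 1 without the variance trend and 1 with all 21 libraries in one fit. At 24 DAP, lower calls ranged from 6 to 10 and higher calls from 2 to 5 without 1 library, and higher calls numbered 5 in the fit of all 21. The shares of all genes called in the omissions and in the fit of all 21 are not given here, so these counts are a description. A member that passed the bound on low values through R108 alone was not tested when 1 of those libraries was left out. More negative interaction calls ranged from 0 to 1 without 1 library, with 0 at a pseudocount of 0.1 and 3 with the replicate number as a block. More positive ones stayed at 2 in every omission. Between the alleles, lower calls ranged from 3 to 6 and higher calls from 2 to 7 without 1 library, and higher calls numbered 2 without the variance trend. With the replicate number as a block, lower calls numbered 5 at 13 DAP, 13 at 24 DAP and 5 between the alleles, and higher calls 0, 4 and 6; in the allele comparison the numbers only name libraries. Members highest at 13 DAP numbered 17 as deposited and 16 with column totals, and those highest at 24 DAP numbered 0 in both. Members like the plastid sum numbered 16 of 47 over the 6 libraries of 13 DAP alone, where 10.8% of nuclear transcripts were, a choice made after seeing the data. The cause of these shifts was not tested. The 33 members under the bound on low values at both developing stages have no test there, at library totals no smaller than 18365151.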
